A study of Macrobrachium rosenbergii with 9 samples.

Results

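In the giant freshwater prawn Macrobrachium rosenbergii, 149 transcripts were abundant in ovary and almost without counts in testis and androgenic gland. They were chosen from 21071 transcripts by their level in counts per 1000000 counts of the library (CPM), as those with at least 100 CPM in each of 3 ovary libraries and under 0.5 CPM in each of 6 male libraries. The study measured RNA in adult prawns of the strain labelled CMr1, with 3 libraries of ovary from females and 3 libraries each of testis and androgenic gland from males. The labels give no treatment and do not state whether each library was made from its own animal. The values of these same libraries chose the transcripts, so their high level in ovary and low level in male tissue are a description and carry no test.

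The crustacean ovary holds oocytes at several stages together with follicle cells that surround them. Growing oocytes store messenger RNA and protein for the early embryo, take up yolk precursor through a receptor in their membrane, and lay down material that later forms the egg coverings. The androgenic gland is a male endocrine organ of decapods that lies along the sperm duct, and the testis makes the sperm. Which of these functions the 149 transcripts serve cannot be read from the files, which do not pair transcript IDs with gene names. None of the IDs matched the 31758 genes of the RefSeq table for this species (0 matches), so the transcripts are described by length, by words in the ID and by level, and the tissue labels could not be checked against marker genes. Several transcripts can come from 1 gene, so 149 transcripts are not 149 genes. In whole tissue, fewer cells of a type and less RNA per cell cannot be told apart.

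Total counts ran from 7142794 to 11231573 per library, so that 3 counts, the level that a count of 0 allows, lay between 0.267 CPM in ovary 2 and 0.42 CPM in testis 3. The limit of 0.5 CPM was worth 3.57 counts in testis 3 and 5.59 counts in androgenic gland 1. Intervals and floors given here cover counting error only. Testis 2 stood apart from the other testis libraries, with correlations of log2(CPM + 1) over 20629 transcripts of 0.81 and 0.84, against 0.93 to 0.96 for all other pairs within a tissue. Without testis 2 in the choice, 155 transcripts qualified. Leaving out a library can only add transcripts, so that all 149 stayed was fixed in advance.

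The ovary-only transcripts were a small part of the transcripts listed and a sizeable part of the ovary's RNA. They were 0.707% of all transcripts and took 8.22%, 8.69% and 9.16% of the counts in ovary 1, 2 and 3, a mean of 8.69% ± 0.468 (SD, n = 3). Ovary 1 was lowest and ovary 3 highest. The 95% Wilson intervals of the 3 shares did not overlap, but they are narrow at this depth and cover counting error only. They do not measure differences between ovaries. Per length, as counts over transcript length scaled to the same total as CPM (TPM), they made up 9.97%, 10.7% and 11.3% of ovary 1, 2 and 3. All 149 had counts in every ovary library, as the minimum of 100 CPM requires. The same minimum places their share of the counts above their share of the transcripts.

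Counts were spread over many of these transcripts. The one with the most counts took 5.64% of their summed CPM, the first 10 took 28.8% and the first 50 took 71.7%. Mean ovary levels ran from 108 to 4899 CPM with a median of 322 CPM, and 23 transcripts averaged 1000 CPM or more. On the per-length scale the means ran from 53.4 to 4794 TPM with a median of 427 TPM. Of the 100 transcripts with the highest mean TPM in ovary 26 belonged to the ovary-only group, as did 89 of the first 500. By mean CPM they were 21 of the first 100 and 77 of the first 500. The minimum of 100 CPM places the group high by choice. It made up 10.1% of the 1468 transcripts that reached this minimum in each ovary library.

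**Figure D1:**
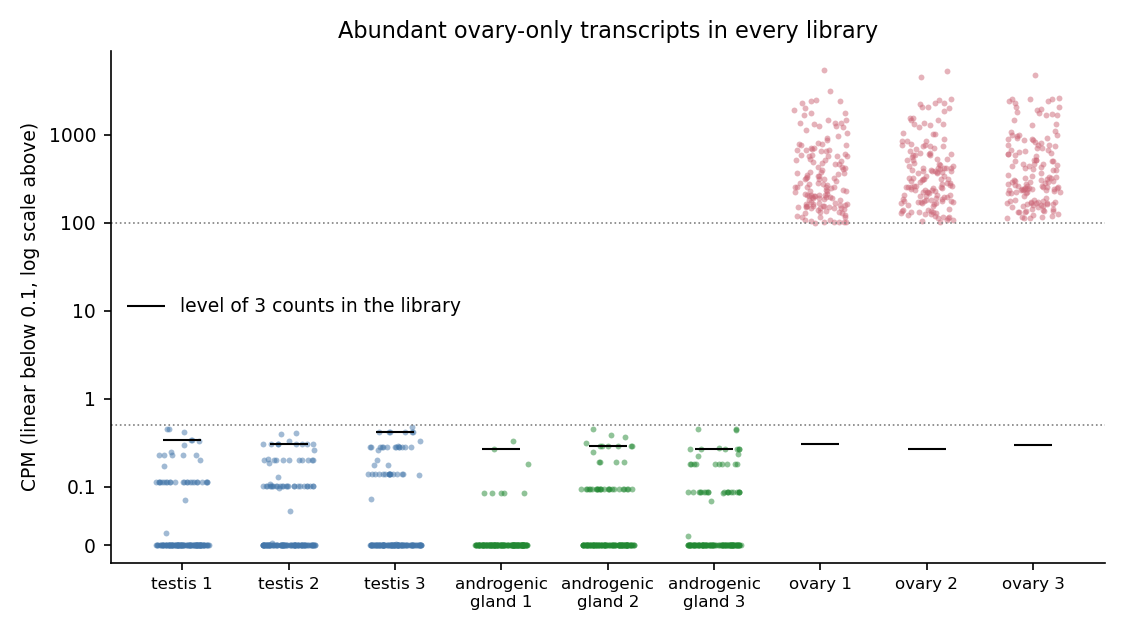
Level in CPM of the 149 ovary-only transcripts in each of the 9 libraries (1 point per transcript; axis linear below 0.1 and logarithmic above). Dotted lines are the limits of 0.5 and 100 CPM that chose the transcripts, and black bars the level of 3 counts in a library. The ovary points begin at 100 CPM and the male points stop below 0.5 CPM by that choice. In every male library most points lie at 0, from 95 of 149 in testis 2 to 141 in androgenic gland 1. In ovary the levels reach 5448 CPM.

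The most ovary counts went to transcript_HQ_Female_transcript2486/f920p0/2372, deposited at 2370 bases. Its level was 5448, 4488 and 4759 CPM in ovary 1, 2 and 3. The male libraries held 1, 1.05 and 1 estimated counts in testis 1, 2 and 3 and 0, 3 and 3.05 in androgenic gland 1, 2 and 3. The ovary libraries stood close together and far above every male library. The ratio of its ovary CPM to that of the pooled male libraries was 31396, with a 95% counting interval of 16595 to 68309.

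Next by counts was transcript_HQ_Female_transcript14251/f125p0/1399, of 1399 bases, with 3124, 5262 and 2608 CPM in ovary 1, 2 and 3. Here ovary 2 stood above the other ovary libraries, and the mean was 3665 ± 1407 CPM (SD, n = 3). In male tissue it reached at most 0.454 CPM, in androgenic gland 2, and it held 11.17 estimated counts over the 6 male libraries.

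Ordered per length, a shorter transcript came first. A transcript of 735 bases had 4964, 4497 and 4923 TPM in ovary 1, 2 and 3 and was the highest of the group by mean TPM, at rank 10 among all transcripts in ovary. Its ovary counts were whole numbers in all 3 libraries. A transcript of 624 bases followed with 4235, 4290 and 4794 TPM in ovary 1, 2 and 3. Both varied little between the ovary libraries. The third by mean TPM was the shortest of all 149, at 393 bases, with 1206, 4901 and 5423 TPM in ovary 1, 2 and 3, so that ovary 1 lay far below the others.

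Among the other transcripts with the most counts, those of 2122, 1807 and 2405 bases stayed within 1.32-fold in CPM between the ovary libraries. The transcript of 2122 bases had 1701, 1357 and 1545 TPM in ovary 1, 2 and 3, and that of 1807 bases had 1888, 1638 and 1377 TPM. That of 2405 bases had 1176, 1325 and 1046 TPM in ovary 1, 2 and 3 and no count in any male library. Wider differences occurred in the remaining members of the first 10. In the transcript of 1445 bases ovary 2 was low, at 1215 TPM against 2571 in ovary 1 and 2498 in ovary 3. In the transcript of 1886 bases ovary 1 was low, at 531 TPM against 1935 in ovary 2 and 1934 in ovary 3. The transcript of 1717 bases had 1267, 1936 and 1714 TPM in ovary 1, 2 and 3, again lowest in ovary 1.

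**Figure D2:**
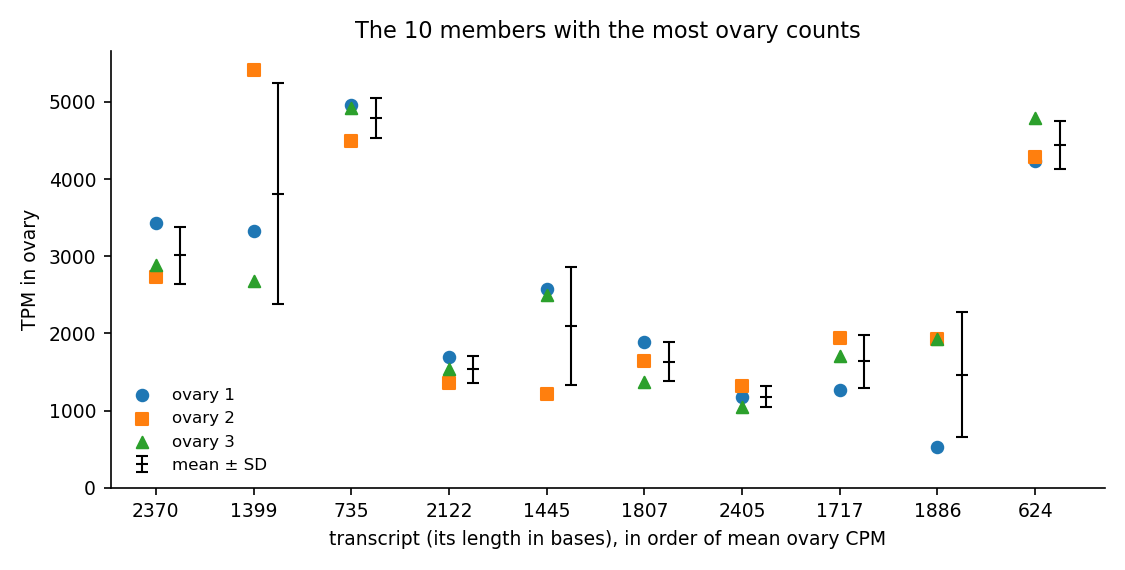
Ovary level in TPM (counts per length, linear axis) of the 10 ovary-only transcripts with the most ovary counts, with 1 symbol per ovary library and the mean ± SD (n = 3) beside it. The transcript of 735 bases is highest, at 4794 TPM on average, and the transcripts of 1399, 1445 and 1886 bases show 1 ovary library apart from the others.

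The word only in the group's name holds strictly for a minority. No count in any of the 6 male libraries was recorded for 42 of the 149 transcripts, and 75 had at most 1 estimated count over all 6. Counts occurred in testis alone for 32 transcripts, in androgenic gland alone for 20 and in both for 55. Of the 894 male values, 149 transcripts in 6 libraries, 663 were 0, 124 lay above 0 and at most 1, 91 above 1 and at most 3, and 16 above 3 estimated counts. The highest was 5 counts. For the 42 transcripts without male counts the ovary CPM was at least 2239-fold to at least 38296-fold higher than a floor of 3 counts over the pooled male libraries, with a median bound of 5641.

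Summed over the 149 transcripts, the male libraries were unequal. Testis 1, 2 and 3 held 63.6, 90.5 and 74.2 estimated counts, or 7.21, 9.17 and 10.4 CPM. Androgenic gland 1, 2 and 3 held 13.7, 69.4 and 82.1, or 1.22, 6.67 and 7.38 CPM. Androgenic gland 1 was the lowest male library and had a count for only 8 of the 149 transcripts, against 40 in androgenic gland 2, 44 in androgenic gland 3, and 41, 54 and 44 in testis 1, 2 and 3. On the CPM scale the male tissues overlapped, since testis 1 lay below androgenic gland 3.

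The summed ovary level was 9839 times that of testis (95% counting interval 8642 to 11251) and 17216 times that of androgenic gland (14782 to 20176). These ratios depended on the scaling for androgenic gland. With trimmed-mean (TMM) scaling, which reads a level relative to the bulk of transcripts, the ratios were 8777 for testis and 5642 for androgenic gland, so their order turned around. Without androgenic gland 1 the CPM ratio to androgenic gland was 12356, without androgenic gland 2 it was 20243 and without androgenic gland 3 it was 22589.

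The choice capped the male counts and set a minimum for the ovary level, so how far they go together cannot be judged within the group. Across the 149 transcripts Spearman's rho between mean ovary CPM and summed male counts was 0.29, a description over transcripts that share the same libraries. Of the 75 transcripts in the upper part by mean ovary CPM 18 had no male count, and of the 74 in the lower part 24 had none. The most male counts belonged to a transcript of 1412 bases with 14 over 6 libraries, 2, 3 and 3 in testis 1, 2 and 3 and 1, 3 and 2 in androgenic gland 1, 2 and 3. It had 1685, 1369 and 2432 CPM in ovary 1, 2 and 3. The transcript of 393 bases followed with 11.9 estimated male counts and that of 2122 bases with 11.3.

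Near the limits the choice rested on small differences. Just inside the ovary minimum stood transcripts of 524, 4246 and 643 bases, whose lowest ovary library had 100.2, 100.6 and 100.8 CPM. Just outside it stood transcripts of 1120, 614 and 462 bases with 99.7, 99.4 and 98.6 CPM in their lowest ovary library. The first of these outside had 221 CPM in ovary 1 and no count in any male library. Just inside the male maximum were transcripts of 1490, 1399 and 1369 bases, with 0.479, 0.454 and 0.453 CPM in their highest male library. Just outside it were transcripts of 1762, 788 and 1200 bases at 0.507, 0.526 and 0.528 CPM, which is 5, 3.76 and 3.77 estimated counts.

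The tests of ovary against each male tissue use the contrast that chose the transcripts, so they are given only for completeness. In 1 edgeR quasi-likelihood fit of all 9 libraries a transcript was called at an adjusted p under 0.05 (Benjamini-Hochberg) and a log2 fold change of at least 1. All 149 passed the filter on low counts, and 149 were called higher in ovary than in testis, where 26.5% of all 17043 transcripts tested were. Against androgenic gland 149 were called higher in ovary, where 39.4% of all tested were. The fitted log2 fold changes had a median of 10.83 against testis and 10.73 against androgenic gland, beside 0.08 and 0.65 over all transcripts tested, and they depend on the prior count where a tissue has few counts. Both comparisons share the ovary libraries. Scaled to library size without TMM factors, 10635 transcripts were higher and 1152 lower in ovary than in androgenic gland, in place of 6710 and 3428. That scaling moved the median over all transcripts tested to a log2 fold change of 2.18 there and of 0.23 against testis.

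The words in the ID, the length and the f number described next were not used by the choice, while the spread between ovary libraries and the likeness over the 9 libraries come from the same values that the choice filtered. All are set beside the 1319 other transcripts that also reached 100 CPM in each ovary library, here called the other abundant ovary transcripts. No test was run over transcripts, since those of 1 library are not independent replicates, and the differences are descriptions.

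Every one of the 149 carried the word Female in its ID. Of the other abundant ovary transcripts 704 carried it, 53.4%, and 615 carried the word Male. Over all transcripts with a count in ovary the share with Female was 71.7%. What the words refer to, and which tissues the transcripts were built from, is not stated in the files or labels, so the word is not independent evidence of a female origin. The share with the Male word was larger the higher the level in male tissue. The word was absent among the 42 transcripts at 0 in all male libraries and the 107 others of the group, on 1 of 36 transcripts whose highest male library had 0.5 to under 1 CPM, on 2 of 62 at 1 to under 5 CPM, and on 9 of 84 at 5 to under 20 CPM. It reached 43.6% of 321 at 20 to under 100 CPM and 56.7% of 816 at 100 CPM or more.

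The Male word transcripts nearest to the ovary-only group, singled out after their values were seen, were 3. One of 1723 bases had 156, 171 and 144 CPM in ovary 1, 2 and 3, and 0.443, 0.991 and 0.176 CPM in testis 1, 2 and 3, with no count in androgenic gland. Another, of 363 bases, had 129, 173 and 204 CPM in ovary and reached 2.03 CPM in androgenic gland 2. The third, of 1611 bases, had 333, 166 and 159 CPM in ovary and 4.22, 3.84 and 4.8 CPM in testis. Each was therefore kept out of the group by its male level alone.

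**Figure D3:**
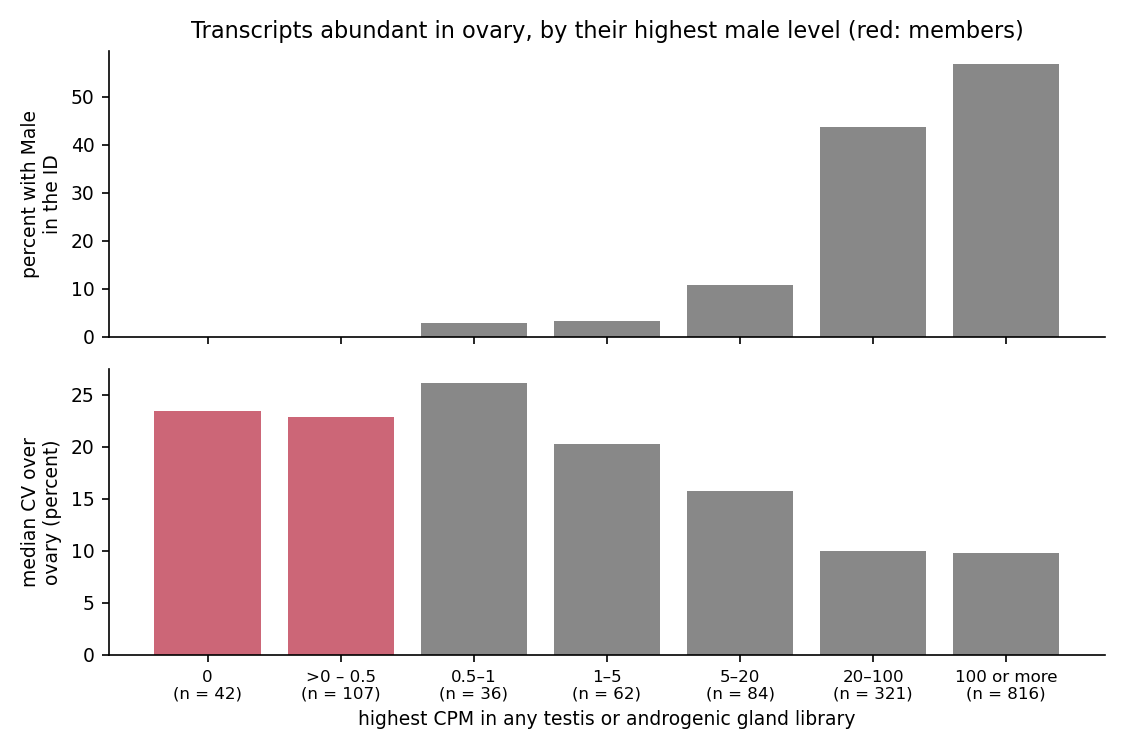
Transcripts with at least 100 CPM in each ovary library, in classes of their highest CPM in any male library (red: the ovary-only group; grey: other abundant ovary transcripts; n is transcripts). The upper bars give the percent with the word Male in the ID, from 0 in the red classes to 56.7%, and the lower bars the median coefficient of variation over the ovary libraries, 23.4% and 22.9% in the red classes, 26.1%, 20.3% and 15.8% in the first 3 grey classes and 9.94% and 9.77% in the last grey ones.

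The ovary-only transcripts were shorter by median than the other abundant ones. Their deposited length had a median of 1225 bases, with quartiles of 884 and 1758 bases and a range of 393 to 4246. The other abundant ovary transcripts had a median of 1918 bases, or 1908 for those with the Female word, and all transcripts with a count in ovary 1552. Nearer to the group the medians were 1472.5 bases for the 36 transcripts whose highest male library had 0.5 to under 1 CPM, 1423.5 for the 62 at 1 to under 5 CPM, 1984.5 for the 84 at 5 to under 20 CPM and 2041 for the 321 at 20 to under 100 CPM. Of the ovary-only transcripts 48 (32.2%) were under 1000 bases, against 12.9% of the other abundant ones, and 4 (2.68%) reached 3000 bases, against 16.7%. A longer transcript collects more reads at the same abundance, so both the ovary minimum and the male maximum in CPM depend on length, and the part of these limits in the difference was not tested. With the same limits set on TPM in place of CPM, 205 transcripts qualified, 124 of them from the 149, and their median length was 1043 bases. No comparison transcripts were chosen by TPM, so this median does not show whether the difference in length holds on that scale.

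With a minimum in CPM, the lowest TPM a transcript can have is set by its length, so levels per length of the longest and shortest transcripts are given with no comparison. The transcript of 4246 bases had 35.4, 36.4 and 88.4 TPM in ovary 1, 2 and 3. Those of 4136 and 3414 bases averaged 63.6 ± 10.4 and 68.8 ± 13.3 TPM (SD, n = 3). Among the shortest, after the transcript of 393 bases described above, those of 413 and 460 bases averaged 720 ± 131 and 657 ± 307 TPM. By mean CPM within the group these 2 ranked 106 and 103 of 149, and the longest 3 ranked 134, 119 and 131. One transcript carried the mark LQ in place of HQ, with 1311 bases and 168, 145 and 128 TPM in ovary 1, 2 and 3.

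**Figure D4:**
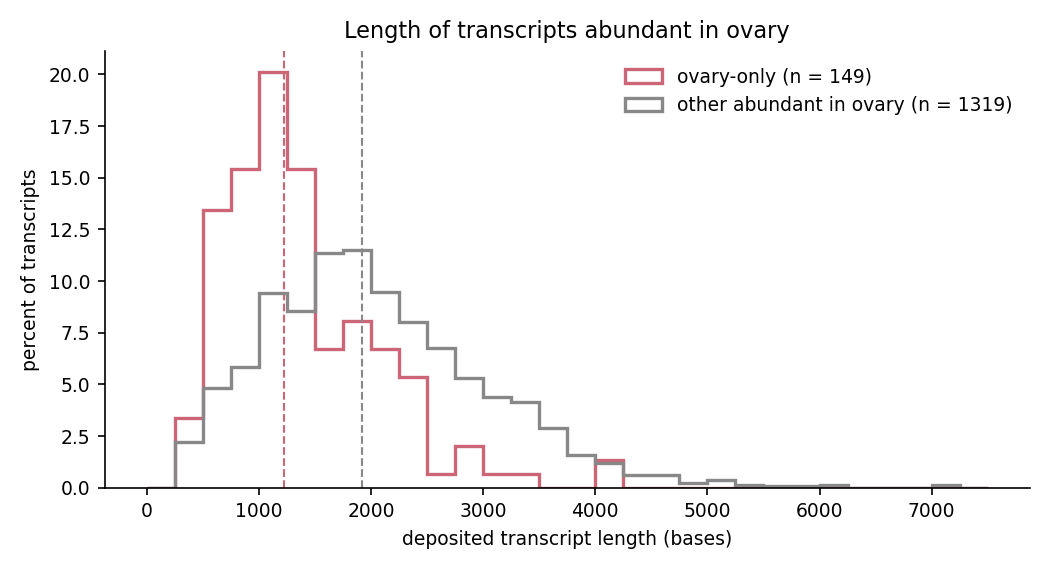
Deposited length of the 149 ovary-only transcripts (red) and the 1319 other transcripts with at least 100 CPM in each ovary library (grey), as percent of transcripts in bins of 250 bases. Dashed lines mark the medians, 1225 and 1918 bases.

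The IDs also hold numbers after the letters f and p, a form used by long-read transcript sequencing (PacBio Iso-Seq), where f counts the full-length reads behind a transcript. The files do not state this meaning. The median f was 5 for the ovary-only transcripts and 5 for the other abundant ovary transcripts. It was 4 for those others with the Female word and 2 for all transcripts with a count in ovary. By highest male level it was 7.5 for 36 others at 0.5 to under 1 CPM and 6 for 62 at 1 to under 5 CPM. In the classes above these it was 4, 4 and 5. An f of 100 or more occurred in 14 of the 149 (9.4%), in 2.5% of the other abundant ovary transcripts and in 2.98% of those with the Female word. This share was not taken by male level. At the other end 35 (23.5%) had an f of 2, the smallest in the table, against 27.8% of the other abundant ones.

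Together the 149 held 7938 of the 88485 f reads on Female word transcripts, or 8.97%, while they were 1.01% of those transcripts. Their share of the ovary counts on Female word transcripts was 12.7% ± 0.532 (SD, n = 3). Just 3 transcripts held 48.3% of those 7938 reads, with 1907, 1007 and 920. The transcript with 1907 had 1344 bases, no male count and 792, 738 and 976 TPM in ovary 1, 2 and 3. The one with 1007 had 1071 bases and 1862, 1748 and 1732 TPM, and the one with 920 was the transcript with the most ovary counts. Spearman's rho between f and mean TPM over the 149 was 0.14. The median of the mean levels was 293 TPM for the 35 with an f of 2 and 846 TPM for the 14 with an f of 100 or more. These medians compare the ends of the f range only. The transcript of 735 bases, highest by TPM, had an f of 3, and those of 2122, 1445 and 2405 bases had an f of 2.

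Ovary counts had decimals in all 3 ovary libraries for 111 (74.5%), as estimated counts have where reads are divided between transcripts, and were whole in all 3 for 28 (18.8%). Among the other abundant ovary transcripts 63.9% had decimals in all 3 and 30.9% were whole. Values of a single transcript with decimals are therefore uncertain in how its reads were divided.

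Ovary-only transcripts had a wider spread between the ovary libraries than other abundant ones by median. Their coefficient of variation over the 3 ovary libraries, the SD of CPM over its mean, had a median of 23.1% with quartiles of 13.7% and 36.8%. The other abundant ovary transcripts had a median of 10.8% with quartiles of 6.25% and 19.4%. For the lowest ovary count in the group, 994, counting error alone gives 3.17%. By classes of the highest male level the median was 26.1% for 36 transcripts just outside the group at 0.5 to under 1 CPM, 20.3% for 62 at 1 to under 5 CPM, 15.8% for 84 at 5 to under 20 CPM, 9.94% for 321 at 20 to under 100 CPM and 9.77% for 816 at 100 CPM or more. The wide spread was thus shared by abundant ovary transcripts with a slightly higher male level and is not particular to the group. The highest ovary library exceeded the lowest by more than 2-fold in 42 of the 149 (28.2%) and in 7.2% of the other abundant ones.

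The difference in median from all 1319 other transcripts was present in each class of level, length and read sharing that was looked at. At a mean of 100 to under 200 CPM the medians were 20.3% for 41 ovary-only and 9.09% for 603 other transcripts, and at 500 CPM or more 22.2% for 48 and 13.3% for 208. Under 1000 bases they were 23% and 10.2%, and at 2000 bases or more 21.7% and 10.8%. Among transcripts with whole counts in all ovary libraries they were 19.8% for 28 and 7.92% for 407. Among those with the Female word the other abundant ovary transcripts had 11.6%. With TMM scaling the medians were 25.3% and 11.5%. Within the group the spread had no clear relation to length or level, with Spearman's rho of 0.02 and 0.07.

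**Figure D5:**
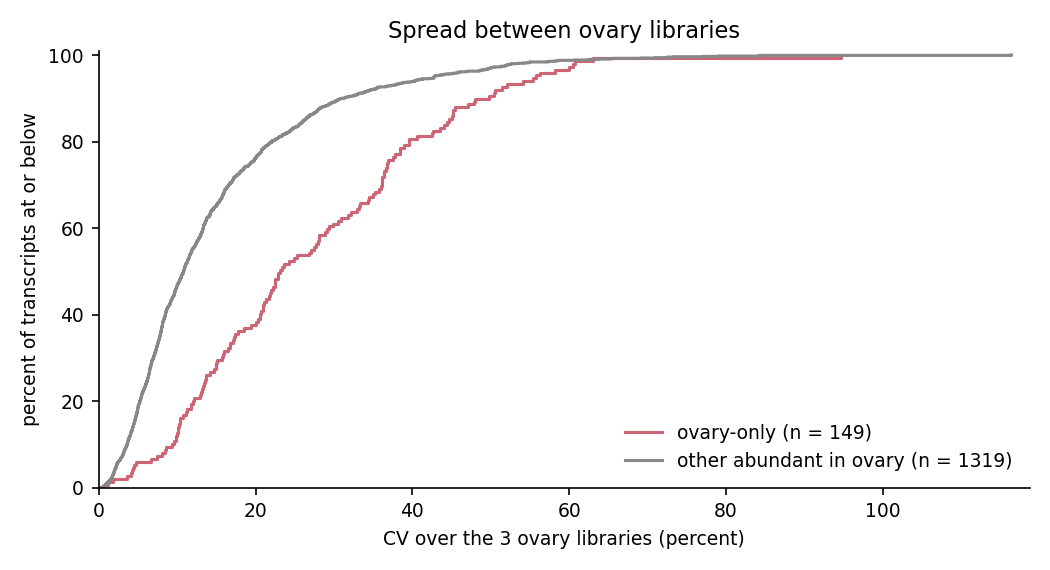
Cumulative percent of transcripts by coefficient of variation over the 3 ovary libraries (SD of CPM over its mean, in percent), for the 149 ovary-only transcripts (red) and the 1319 other transcripts with at least 100 CPM in each ovary library (grey). The red line lies to the right over most of the range, with medians of 23.1% and 10.8%.

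The spread did not follow 1 library throughout. Ovary 1 was most often lowest in both sets, and ovary 3 was most often highest in the ovary-only group. Of the 149, 71 (47.7%) were lowest in ovary 1, 41 (27.5%) in ovary 2 and 37 (24.8%) in ovary 3. In turn 76 (51%) were highest in ovary 3, 46 (30.9%) in ovary 1 and 27 (18.1%) in ovary 2. The other abundant ovary transcripts were lowest in ovary 1, 2 and 3 in 38.9%, 23.4% and 37.7% and highest in 39%, 29.5% and 31.5%. In 10 of the 149 ovary 1 lay under 1/2 of each of the other ovary libraries (6.71%), against 10 of the 1319 others (0.758%). Their median length was 855 bases in the ovary-only group and 1836.5 bases in the others. Ovary 3 was that low in 4 of the 149 (2.68%) against 8 of the others (0.607%), and ovary 2 in 2 (1.34%) against 2 (0.152%). For ovary 3 the median lengths were 1798.5 bases in the group and 1433.5 in the others. For ovary 2 they were 1755 and 2543.5 bases. Ovary 1 lay over 2 times each other ovary library in 2 of the 149 (1.34%) against 21 of the others (1.59%). Ovary 2 did so in 2 (1.34%) against 6 (0.455%), and ovary 3 in 3 (2.01%) against 2 (0.152%).

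The widest spread belonged to a transcript of 1603 bases with 173, 709 and 135 CPM in ovary 1, 2 and 3, so that ovary 2 alone was high. A transcript of 1429 bases had 128, 480 and 244 CPM and no male count. The transcript of 393 bases came next, with a coefficient of variation of 60.7%. The least spread was 0.673%, in a transcript of 1160 bases with 590, 583 and 585 CPM and no male count. Close to it were a transcript of 1503 bases with 155, 157 and 158 CPM and the transcript of 1071 bases with 1336, 1300 and 1292 CPM.

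The pattern over the 9 libraries was not limited to highly abundant transcripts. The 5 other transcripts whose log2(CPM + 1) followed the group's mean profile most closely over the 9 libraries had no count in any male library and far lower ovary levels, with Pearson's r rounding to 1. In the same order by r, their lengths were 578, 1091, 856, 656 and 1020 bases and their mean ovary levels 57.9, 8.76, 71.2, 15.6 and 20.1 CPM. All carried the word Female. In each of them 6 of the 9 points behind r are at 0, so r describes little more than ovary set apart from male tissue.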

How the data were processed

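RNA of 3 testis, 3 androgenic gland and 3 ovary libraries was measured, grouped by sample title. As deposited by the authors, the table holds unscaled estimated counts for each transcript, beside its length. From 46.9% to 64.3% of a library's values were whole (tolerance 1e-06). The submitters' processing notes name Bowtie 0.12.2, DESeq 1.10.1 and the mouse build mm8, with no roles. Counting tool, strand setting and transcript source: not given in the sources used here.

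CPM is the count over the column sum times 1000000. TPM is the count over deposited length, scaled to 1000000 over the table. For tests, counts were rounded, filtered with filterByExpr (minimum count 10, minimum total 15), scaled by TMM and tested with edgeR 4.0.16 (R 4.3.3, prior count 1), after a check on simulated data. The simulated tissues shared a profile apart from a small set of transcripts changed in ovary. The check therefore does not cover the wide tissue differences and near-absent male counts of these data. DESeq2 1.42.0 was an alternative. Ratios use pooled counts with exact 95% intervals. P-values judge a tissue difference against the spread between these libraries only. The transcripts and lists were chosen with earlier results of these data known. Transcripts described singly are the 10 with the most ovary CPM, the 3 longest, shortest, most and least variable and richest in male counts, the LQ one, the 3 nearest each limit, the 3 nearest Male word and 3 highest f transcripts (the last pair of sets chosen after values were seen) and the 5 most alike. At most 2 IDs are printed.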

Additional observations from a re-analysis of the deposited data

How the results depend on the processing

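The number of transcripts that qualify depended on the limits, which are arbitrary. It was 274 with an ovary minimum of 50 CPM and 80 with 200 CPM, 247 with a male maximum of 5 CPM, 42 with no male count, and 92 with TMM-scaled CPM, 86 of them among the 149. It was 103 and 185 with male maxima of 0.25 and 1 CPM, and 205 on TPM. Leaving out each library in turn, which can only add transcripts, gave 149 to 190. Under these rules and omissions 0 to 3 transcripts carried the Male word and the median length was 1043 to 1324 bases. The median coefficient of variation was 22.2% to 30.5%. It was taken over all ovary libraries, also where 1 of them was left out of the choice. The 30.5% came without ovary 1 in the choice, which lets in transcripts under the ovary minimum there. That value is therefore not a spread without ovary 1. Some of these alternatives were chosen after seeing the data. The mean share of ovary counts was 8.46% to 8.93% without 1 ovary library, and 10.7% per length. The ratio of summed ovary to testis level was 8980 to 10548 without 1 library, and that to androgenic gland 12356 to 22589, or 5642 with TMM scaling.

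All 149 were called higher in ovary in both comparisons with size factors of DESeq2 in edgeR, with library size only and without the filter. They were also called with DESeq2, with the replicate block and without each library. The same contrast chose the transcripts and left little room for another outcome, so these calls do not measure robustness. Over all 17043 transcripts tested, library size only gave 10635 higher in ovary than in androgenic gland. The replicate block gave 149 members called in each comparison. Of the 17043 transcripts tested, it called 4460 higher in ovary than in testis and 6676 higher than in androgenic gland. Deviations of same-numbered libraries correlated at -0.11 to -0.0033 for ovary and testis and at -0.097 to -0.0069 for ovary and androgenic gland. Ovary is from females and the other tissues from males, so these libraries could not share an animal. Testis and androgenic gland of the same number were not compared, so a pairing between them was not tested. The labels state no pairs, and none were used in the main fit. Depth limits the male values, where a limit worth 3.57 to 5.59 counts in a single library decides whether a transcript qualifies.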
